A study of Mus musculus with 6 samples.

Results

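Costimulatory ligands are surface proteins through which an antigen-presenting cell tells a T cell how to respond to the peptide it is shown on MHC. CD80 and CD86 bind CD28, which promotes activation, and CTLA4, which restrains it, while PD-L1 and PD-L2 bind the inhibitory receptor PD-1. Resting macrophages carry little CD80 and CD86, and contact with microbial products or T cells raises both. The set described here is 10 genes of the 18039 in the deposited table, taken by symbol: Cd86, Cd80, Icosl, Cd274 (PD-L1), Pdcd1lg2 (PD-L2), Cd276 (B7-H3), Vsir (VISTA), Tnfsf9 (4-1BB ligand), Cd40 and Cd83. Cd40 encodes a receptor that T cells engage through CD40 ligand, and is placed with the ligands because it belongs to the same exchange. The set was chosen by gene family around Cd86, which was itself selected on its measured difference between the genotypes in these libraries, so the members' values in that comparison are a description and carry no test.

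RNA was sequenced from mouse bone marrow-derived macrophages (BMDMs), which are marrow cells turned into macrophages in culture, here by 7 days with M-CSF at 20 ng/mL. The groups were 3 libraries of the KAT7KO genotype and 3 of the Ctrl genotype, each labelled a biological replicate. KAT7 (HBO1) is a lysine acetyltransferase that acetylates histones. The labels name no deleted exon, Cre line, strain, sex or age, give no stimulus beyond M-CSF, and do not say whether replicates came from separate animals, so p-values measure only the spread between these libraries.

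Library totals lay between 19906726 and 20660090 counts. Levels are given as CPM, counts scaled to library size with TMM factors, and 3 counts correspond to 0.145 to 0.152 CPM. Kat7 stood at 41.4, 42.2 and 38.2 CPM in KAT7KO libraries, against 73.2, 70.3 and 69.0 CPM in Ctrl libraries, which is 57.3% of Ctrl. All 8 macrophage markers looked at passed the filter on low counts, among them Adgre1 at a mean of 640 CPM in KAT7KO and 594 CPM in Ctrl. Their sum was 22000 to 22800 CPM in KAT7KO libraries and 27200 to 36900 CPM in Ctrl libraries, and 2 of the 8, Lyz2 and Itgam, fell (log2 fold changes -0.68 and -0.42, edgeR adjusted p = 0.00521 and 5.4e-05). Lyz2 carried the gap in the sum, at a mean of 18000 CPM in KAT7KO and 28900 CPM in Ctrl, while the other 7 summed to 4310 to 4390 CPM in KAT7KO libraries and 4150 to 4310 CPM in Ctrl libraries. With edgeR's quasi-likelihood test at an adjusted p of 0.05, 10.7% of the 12483 genes tested were higher and 13.2% lower in KAT7KO, 23.9% in all. The numbers of genes, 1335 and 1652, came to 663 to 740 and 1071 to 1139 without any 1 of the KAT7KO libraries, and to 834 and 1180 without Ctrl replicate 2. The Ctrl libraries differed more among themselves than the KAT7KO libraries did, with Ctrl replicate 1 farthest from the others (chi-square per gene 11.5 and 20.2 against Ctrl replicates 2 and 3, and 3.78 between those). Each KAT7KO pair gave 2.69 to 3.48.

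Cd86 had the largest log2 fold change of the 9 members with enough counts to be fitted. It stood at 14.6, 17.2 and 16.3 CPM in KAT7KO libraries, against 3.96, 5.57 and 5.78 CPM in Ctrl libraries. Every KAT7KO value lay above every Ctrl value, with the gap wider than the spread within either genotype. The fold was 3.14 with a 95% interval of 2.57 to 3.84 (log2 fold change 1.65, SE 0.14), which ranked 23 from the highest among the 12483 genes tested. Ctrl replicate 1 was the lowest of the Ctrl values, and without it the log2 fold change was 1.5. Without any other library it lay between 1.6 and 1.75. The authors' deposited table gives a log2 fold change of 1.66 for this gene. In bulk RNA, more cells that carry a transcript and more transcript per cell cannot be told apart.

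Cd80 encodes the other ligand of CD28 and CTLA4, with the higher affinity of the pair. It stood at 9.18, 10.8 and 10.6 CPM in KAT7KO libraries, against 9.42, 8.55 and 8.18 CPM in Ctrl libraries. The groups overlapped, since KAT7KO replicate 1 lay below Ctrl replicate 1. The fitted log2 fold change was 0.23 with an interval of -0.02 to 0.47. Per transcript length, in the authors' FPKM, the ratio of Cd86 to Cd80 was 1.61, 1.61 and 1.55 in KAT7KO libraries, against 0.425, 0.659 and 0.715 in Ctrl libraries. Cd86 exceeded Cd80 in every KAT7KO library and lay below it in every Ctrl library.

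**Figure D1:**
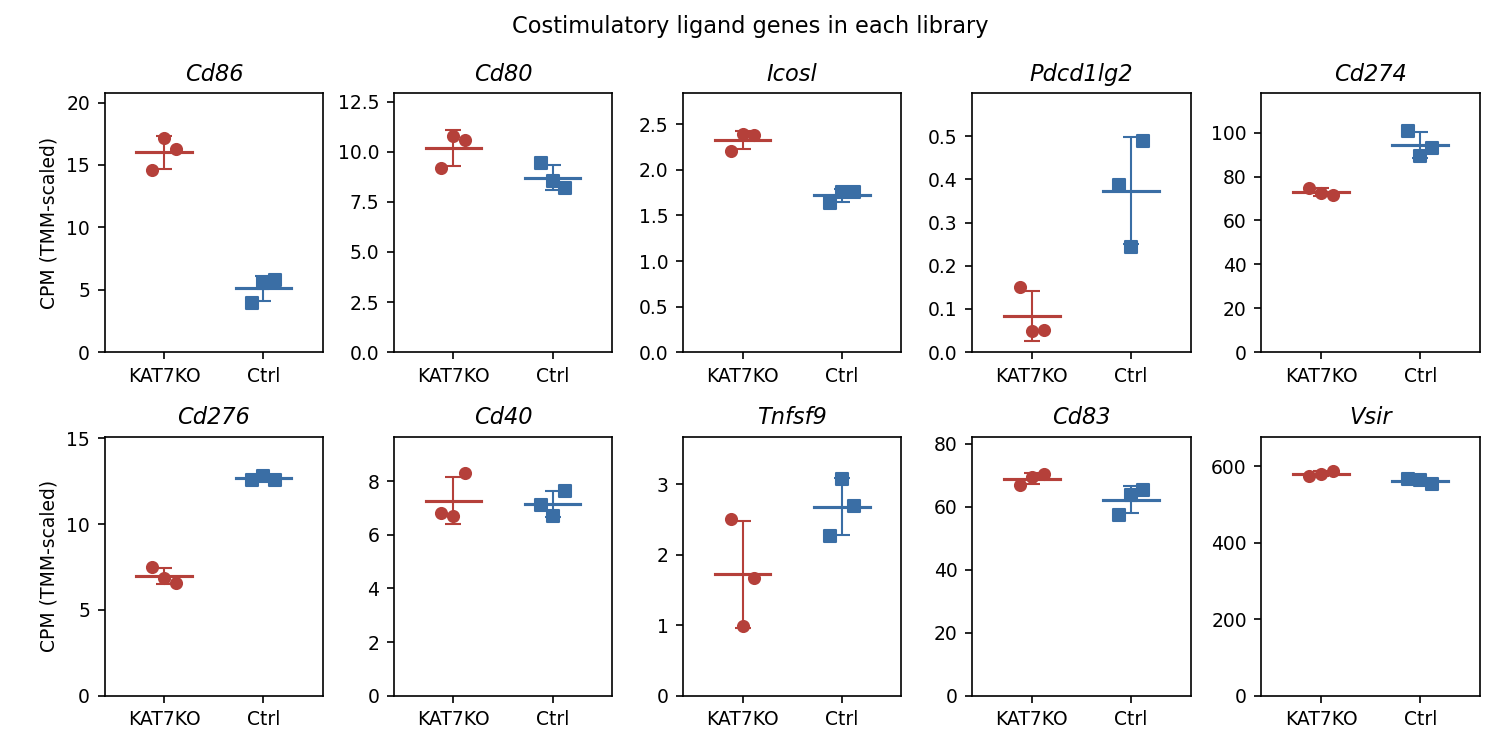
TMM-scaled CPM of the 10 genes in each library, with a panel and a linear axis from 0 for each gene, KAT7KO on the left and Ctrl on the right. Points are libraries, long lines are means and error bars are SD (n = 3 each), and Cd86 is the panel where the KAT7KO values (14.6 to 17.2 CPM) lie farthest above the Ctrl values (3.96 to 5.78 CPM).

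Icosl encodes the ligand of ICOS, a receptor that supports follicular helper T cells. Its values were 2.21, 2.39 and 2.38 CPM in KAT7KO libraries, against 1.64, 1.76 and 1.76 CPM in Ctrl libraries. The groups did not overlap and each was tight, but the gene had only 139 and 106 counts in all, and the interval of its log2 fold change ran from -0.02 to 0.89 around 0.43.

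Cd274, whose product PD-L1 restrains T cells through PD-1, stood at 75.0, 72.5 and 71.5 CPM in KAT7KO libraries, against 101, 89.4 and 92.9 CPM in Ctrl libraries. No library overlapped: all KAT7KO values were below all Ctrl values, at 77.2% of Ctrl (95% interval 70.7% to 84.3%; log2 fold change -0.37, SE 0.06). Pdcd1lg2, which encodes the other PD-1 ligand, had 3, 1 and 1 counts in KAT7KO libraries, against 8, 5 and 10 counts in Ctrl libraries, and was too low for the filter. Its summed counts were 22.4% of Ctrl after scaling, with an exact 95% interval of 6.64% to 60.2% that covers counting error only. Without KAT7KO replicate 1 the log2 ratio of sums was -2.90, against -2.16 with all libraries.

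Cd276 encodes B7-H3, a B7 family member found on many tissues and tumours. It stood at 7.52, 6.86 and 6.57 CPM in KAT7KO libraries, against 12.6, 12.8 and 12.6 CPM in Ctrl libraries. The groups were far apart for their spread, and the gene was at 55.2% of Ctrl (95% interval 47.1% to 64.7%; log2 fold change -0.86, SE 0.11). The authors' deposited table gives log2 fold changes of -0.85 for Cd276, -0.37 for Cd274 and -2.15 for Pdcd1lg2.

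Vsir encodes VISTA, a B7-like inhibitory molecule of myeloid cells, and was the member with the most RNA. It stood at 575, 580 and 587 CPM in KAT7KO libraries, against 568, 564 and 554 CPM in Ctrl libraries. The KAT7KO values all lay above the Ctrl values, yet the difference was small, with a log2 fold change of 0.047 (95% interval -0.048 to 0.14). In the authors' FPKM the groups overlapped, at 114, 115 and 116 in KAT7KO libraries, against 117, 112 and 109 in Ctrl libraries. The coefficient of variation of Vsir in CPM was 1.02% in KAT7KO and 1.30% in Ctrl.

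The promoter sequences below are of Cd274, Pdcd1lg2 and Cd276, the 3 members whose KAT7KO libraries all lay below the Ctrl libraries. They are from RefSeq, build GRCm38.p6, 250 bases before to 50 after the start, 5′ to 3′ on the gene's strand, with each CG pair, the site of DNA methylation, in capitals. The windows are chr19:29367188-29367487 on the plus strand for Cd274, chr19:29410669-29410968 on the plus strand for Pdcd1lg2 and chr9:58554984-58555283 on the minus strand for Cd276.
Cd274: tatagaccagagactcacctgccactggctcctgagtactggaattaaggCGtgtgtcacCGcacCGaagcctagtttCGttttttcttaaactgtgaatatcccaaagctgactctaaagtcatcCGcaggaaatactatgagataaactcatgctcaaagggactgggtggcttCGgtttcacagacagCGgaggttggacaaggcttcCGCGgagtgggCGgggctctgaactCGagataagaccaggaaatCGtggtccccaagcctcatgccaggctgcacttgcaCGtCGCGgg
Pdcd1lg2: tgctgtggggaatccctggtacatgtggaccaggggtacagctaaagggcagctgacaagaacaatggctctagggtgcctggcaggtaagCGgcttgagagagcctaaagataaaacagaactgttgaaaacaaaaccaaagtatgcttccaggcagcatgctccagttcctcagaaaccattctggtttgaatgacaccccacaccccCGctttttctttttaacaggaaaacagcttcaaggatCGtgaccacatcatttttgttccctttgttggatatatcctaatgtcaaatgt
Cd276: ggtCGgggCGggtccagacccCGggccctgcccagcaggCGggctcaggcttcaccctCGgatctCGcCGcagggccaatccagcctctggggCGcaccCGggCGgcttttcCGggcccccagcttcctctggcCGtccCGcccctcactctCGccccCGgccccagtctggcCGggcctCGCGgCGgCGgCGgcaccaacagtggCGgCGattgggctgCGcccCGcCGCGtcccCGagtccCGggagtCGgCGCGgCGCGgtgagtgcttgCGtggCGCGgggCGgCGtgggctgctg
The Cd274 window holds 15 CG pairs, that of Pdcd1lg2 holds 3 and that of Cd276 holds 39. The median of 32851 promoter windows was 7, and 4.45% hold at least as many as Cd276, 34.6% as many as Cd274 and 76.7% as many as Pdcd1lg2. The 3 genes thus span CG-rich and CG-poor starts. On either strand, the interferon-response core, GAAA and GAAA with any 2 bases between them (in 3.44% of windows), and the interferon-gamma activation motif TTCNNNGAA (in 8.3%) were in 0 of the 6 member windows present, which were these 3 and those of Cd80, Icosl and Vsir.

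Cd274 and Pdcd1lg2 are neighbours on chromosome 19, and the genes that flank the pair differed in the opposite direction. Neighbours were looked at after the members' values were seen, by a rule of 2 protein-coding genes on each side of every member in the RefSeq gene order of GRCm38.p6. Plgrkt, a plasminogen receptor gene next to Cd274, averaged 53.1 CPM in KAT7KO and 42.7 CPM in Ctrl and rose by 0.31 on the log2 scale (SE 0.08, edgeR adjusted p = 0.0135). Its call was lost without KAT7KO replicate 1 or KAT7KO replicate 2 (adjusted p = 0.0648 and 0.0614). Ric1, a gene of Golgi trafficking next to Pdcd1lg2, averaged 57.1 CPM in KAT7KO and 44.9 CPM in Ctrl and rose by 0.35 (SE 0.07, adjusted p = 0.00237). Ermp1 beyond it had a log2 fold change of 0.21 and did not pass (adjusted p = 0.0720). Around the other members, Gatd3a beside Icosl rose by 0.42 (adjusted p = 0.0143) and Dtnbp1 near Cd83 by 0.17 (adjusted p = 0.0395). Gatd3a lost its call without KAT7KO replicate 2, KAT7KO replicate 3 or Ctrl replicate 2 (0.0550, 0.0823 and 0.0734), and Dtnbp1 without any 1 of the KAT7KO libraries (0.117 to 0.139) or Ctrl replicate 2 (0.0689), and its log2 fold change was 0.11 without Ctrl replicate 1. In all, 4 of 21 tested neighbours were higher and 0 lower, where 10.7% and 13.2% of all genes were. Of the genes around Cd86, only Slc15a2 had enough counts to be tested (mean 0.802 CPM in KAT7KO and 0.634 CPM in Ctrl, adjusted p = 0.630), and Stfa3 and Ildr1 averaged at most 0.0336 CPM in either genotype.

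**Figure D2:**
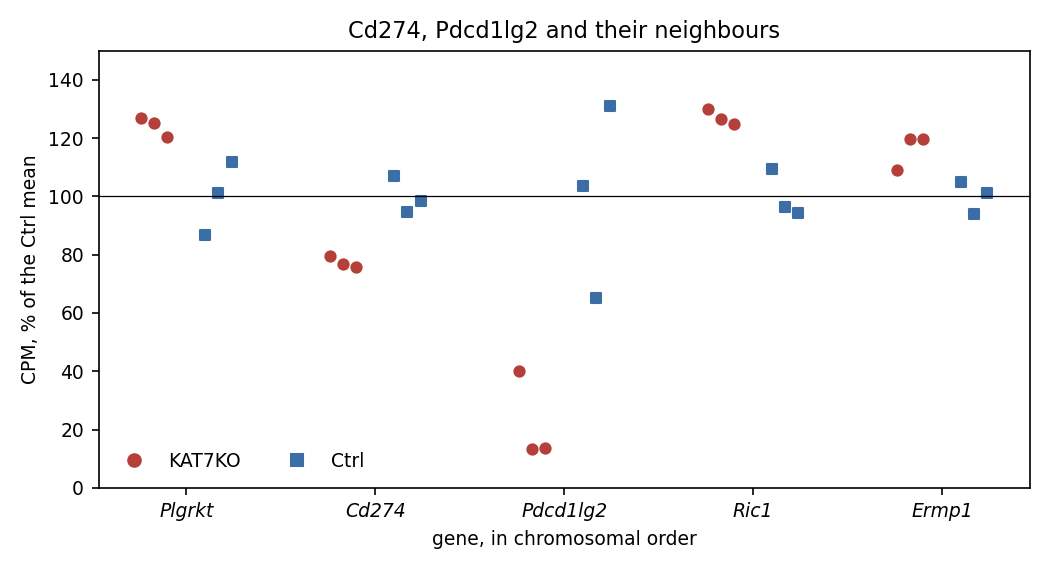
CPM of 5 neighbouring genes in each library as a percentage of the gene's Ctrl mean, in chromosomal order, KAT7KO left of Ctrl for each gene; the line marks 100%. Cd274 and Pdcd1lg2 lie below the line in KAT7KO, whereas Plgrkt and Ric1 on either side of the pair lie above it (log2 fold changes 0.31 and 0.35).

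Tnfsf9 encodes 4-1BB ligand, a TNF family member that sustains activated T cells. It had 2.51, 0.995 and 1.67 CPM in KAT7KO libraries, against 2.27, 3.08 and 2.69 CPM in Ctrl libraries. KAT7KO replicate 1 lay inside the Ctrl range, and the KAT7KO values varied more than those of the other 8 tested members, with a coefficient of variation of 44.0%, against 15.0% in Ctrl. The log2 fold change was -0.64 (95% interval -1.24 to -0.03), and -1.01 without KAT7KO replicate 1 and -0.36 without KAT7KO replicate 2.

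Cd40 had 6.82, 6.71 and 8.29 CPM in KAT7KO libraries, against 7.10, 6.69 and 7.64 CPM in Ctrl libraries. The ranges overlap almost fully, and the log2 fold change of 0.025 had an interval of -0.26 to 0.31. Cd83 marks mature dendritic cells and keeps CD86 and MHC class II at the surface by opposing a ubiquitin ligase. It had 66.9, 69.4 and 70.4 CPM in KAT7KO libraries, against 57.3, 63.8 and 65.4 CPM in Ctrl libraries. Its groups did not overlap, with a log2 fold change of 0.15 (95% interval 0.01 to 0.28), which came to 0.09 without Ctrl replicate 1.

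Of the 10 members, 9 passed the filter. Of these 9, 1 was higher (Cd86) and 2 were lower (Cd274 and Cd276) past the adjusted p of 0.05 used for all genes, where 10.7% and 13.2% of all genes were. With 1 library left out these counts were 1 to 2 and 2 to 3. The count of 2 higher came without Ctrl replicate 3, and that of 3 lower without KAT7KO replicate 1 or Ctrl replicate 1. In TMM-scaled CPM, the 3 libraries of each genotype did not overlap for 6 of the 9, 4 of them higher and 2 lower. Of all genes tested, 19.9% and 21.2% were so, 41.0% in all. Because the set was chosen with this comparison known, nothing is read from these counts.

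**Figure D3:**
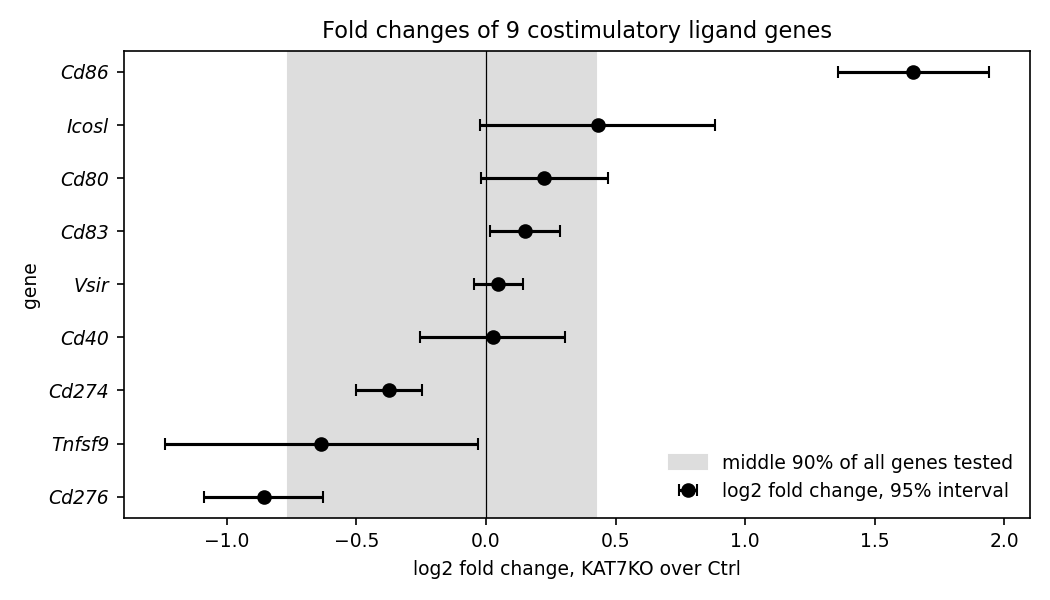
Log2 fold change of the 9 members that passed the filter, KAT7KO over Ctrl, with its 95% interval from the fit over all genes; the grey band spans the middle 90% of all 12483 genes tested (-0.77 to 0.42). Cd86 at 1.65 and, barely, Icosl at 0.431 lie beyond the band on the higher side, and Cd276 at -0.86 beyond it on the lower side.

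Per transcript length, the order of the members changed mainly through Cd86. In FPKM, KAT7KO means were 115 for Vsir, 26.6 for Cd83, 20.0 for Cd274, 4.35 for Cd86, 2.73 for Cd80, 2.12 for Cd40, 1.90 for Cd276, 1.33 for Tnfsf9, 0.499 for Icosl and 0.0423 for Pdcd1lg2. Cd40 and Cd276 changed places between KAT7KO libraries and were not separated by their spread. In Ctrl the means were 113 for Vsir, 26.3 for Cd274, 24.3 for Cd83, 3.48 for Cd276, 2.37 for Cd80, 2.11 for Cd40, 2.09 for Tnfsf9, 1.40 for Cd86, 0.375 for Icosl and 0.191 for Pdcd1lg2. In Ctrl, Cd274 and Cd83 changed places between libraries, as did Cd80, Cd40 and Tnfsf9. Cd86 held rank 4 in every KAT7KO library and rank 8 in every Ctrl library. Cd276 held rank 6 or 7 in KAT7KO libraries and rank 4 in every Ctrl library. Vsir made up 65.7% to 65.9% of the summed FPKM of the 10 genes in KAT7KO libraries and 63.6% to 64.8% in Ctrl libraries, while Cd86 made up a mean of 2.49% in KAT7KO and 0.800% in Ctrl. The sum over the set was 173.1 to 176.5 FPKM in KAT7KO libraries and 171.8 to 180.4 FPKM in Ctrl libraries, so the genotypes overlapped in the total.

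**Figure D4:**
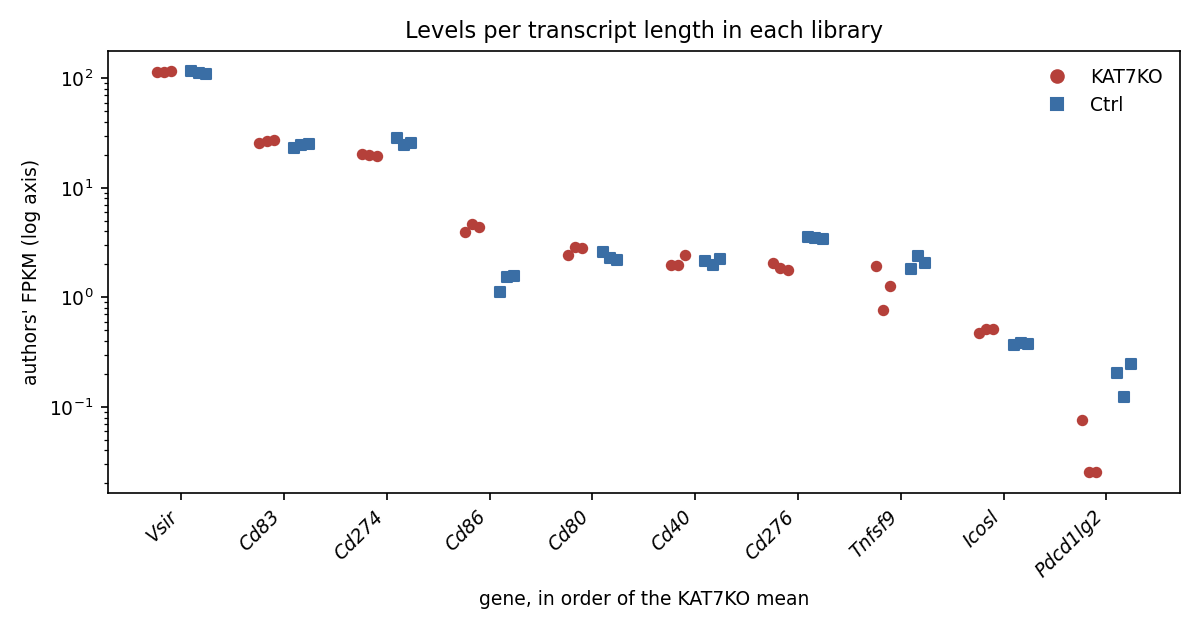
The authors' FPKM of each member in each library on a log axis, KAT7KO left of Ctrl, with genes in order of the KAT7KO mean. Cd86 lies above Cd80, Cd40 and Cd276 in KAT7KO libraries (4.35 FPKM on average) and below them in Ctrl libraries (1.40 FPKM).

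The genes whose pattern over the 6 libraries was nearest to that of Cd86 were Vsig4, Lilra5, Gpr141, Naaa and Mcemp1. Nearness was the root mean square difference in log2 CPM, each gene centred on its own mean, among 11104 genes with a mean of at least 1 CPM. Vsig4, a complement receptor of the immunoglobulin superfamily, was nearest at 0.156, with 12.5, 15.2 and 12.8 CPM in KAT7KO libraries, against 4.40, 5.52 and 5.34 CPM in Ctrl libraries. Like Cd86 it was highest in KAT7KO replicate 2 and lowest in Ctrl replicate 1. Naaa, which encodes a lysosomal hydrolase of acylethanolamides, was the most abundant of the 5, at a mean of 176 CPM in KAT7KO and 68.6 CPM in Ctrl, and its distance was 0.209. The distances of Lilra5, Gpr141 and Mcemp1 were 0.179, 0.190 and 0.216. These genes were picked for their likeness, so their values carry no test.

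Around the set, 156 genes of antigen presentation and T cell contact were listed, 119 were tested, and 20 were higher and 22 lower in KAT7KO. That is 16.8% and 18.5% of those tested, beside 10.7% and 13.2% of all genes, and the median log2 fold change was -0.026 against 0.0023 for all genes. The lists were chosen with earlier results of these data known, so these shares and the p-values of list genes are a description. The counts came to 13 higher without KAT7KO replicate 1 or KAT7KO replicate 2. They came to 11, 11 and 9 lower without KAT7KO replicates 1, 2 and 3, and to at most 23 higher and 27 lower without a Ctrl library. Among the receptors that T cells use for these ligands, 1 of 6 was tested. That was Cd28, the receptor of CD80 and CD86, with 28.1, 31.8 and 27.6 CPM in KAT7KO libraries, against 19.6, 19.4 and 13.0 CPM in Ctrl libraries. The log2 fold change was 0.75 (SE 0.13, edgeR adjusted p = 0.00134), and the groups did not overlap. T and NK cell markers in the same libraries summed to 2.21 to 3.89 CPM over 9 genes in KAT7KO and 1.88 to 2.20 CPM in Ctrl, under the level of Cd28 alone. Cd4, the only 1 tested, made up 1.40 to 3.03 and 1.22 to 1.61 CPM of these sums (log2 fold change 0.69, edgeR adjusted p = 0.0997). Without KAT7KO replicate 1 the list had 1 higher gene. Of the 9, 2 were at 0 in Ctrl, Cd3d and Gzma, with at most 0.455 and 0.149 CPM in a KAT7KO library. Klrb1c averaged lower in KAT7KO. The part of T cells in the difference of Cd28 was not tested.

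Genes of adhesion and of the SLAM family, which hold the contact between cells, gave 5 higher and 1 lower of 13 tested (median log2 fold change -0.012). Cd24a, a glycosylphosphatidylinositol-anchored costimulator, averaged 188 ± 5.33 CPM in KAT7KO and 90.2 ± 8.02 CPM in Ctrl (SD, n = 3 each) and rose by 1.06 (SE 0.06, edgeR adjusted p = 6.73e-08). Itgal, the alpha chain of the integrin LFA-1, rose by 0.71 (SE 0.07, adjusted p = 6.17e-06), while its partner chain gene Itgb2 averaged 1980 CPM in KAT7KO and 2020 CPM in Ctrl and did not pass. Cd48, the ligand of CD2 and 2B4, rose by 0.42 (adjusted p = 0.00024). Slamf6 and Slamf9, named after their values were seen, rose by 1.37 and 0.52, and Slamf9 lost its call without KAT7KO replicate 1 or 2 (adjusted p = 0.0633 and 0.0656). Slamf8 was the gene that fell, by 0.50 (SE 0.06, adjusted p = 7.51e-05), and without Ctrl replicate 1 the list had 2 lower genes. Icam1, the ligand of LFA-1, averaged 50.4 CPM in KAT7KO and 48.4 CPM in Ctrl.

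MHC class II presentation, the partner of costimulation in T cell contact, had 5 higher and 0 lower of 10 tested genes (median log2 fold change 0.21). Ifi30, a lysosomal thiol reductase that prepares antigens, averaged 468 ± 5.40 CPM in KAT7KO and 358 ± 10.8 CPM in Ctrl (SD, n = 3 each) and rose by 0.39 (SE 0.05, adjusted p = 5.16e-05). Cd74, H2-DMb1 and H2-Ab1 rose by 0.33, 0.37 and 0.25, and so did H2-Aa, named after its value was seen, by 0.25. H2-Aa lost its call without KAT7KO replicate 1 or 2 (adjusted p = 0.0604 and 0.0686). Without Ctrl replicate 1 the list had 5 higher and 2 lower genes.

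Other inhibitory ligands and receptors gave 3 higher and 3 lower of 14 tested (median 0.0072). Ceacam1, an inhibitory adhesion molecule, averaged 49.3 CPM in KAT7KO and 35.1 CPM in Ctrl and rose by 0.49 (adjusted p = 0.000116). Havcr2 (TIM-3) rose by 0.32 but lost its call without KAT7KO replicate 2, KAT7KO replicate 3 or Ctrl replicate 2 (adjusted p = 0.0775, 0.0982 and 0.0794). Cd200, the ligand of an inhibitory myeloid receptor, averaged 117 CPM in KAT7KO and 164 CPM in Ctrl and fell by 0.48 on the log2 scale (adjusted p = 2.11e-05), and Nectin2, a ligand of TIGIT and CD226, fell by 0.48 (adjusted p = 0.000709). Tnfrsf14 and Lgals9, named after their values were seen, rose by 0.38 and fell by 0.15. Each lost its call without any 1 of the KAT7KO libraries or without Ctrl replicate 2 (adjusted p = 0.0551 to 0.182 for Tnfrsf14 and 0.0661 to 0.154 for Lgals9), and Tnfrsf14 also without Ctrl replicate 3 (0.10). The list had 1 higher gene without KAT7KO replicate 2, KAT7KO replicate 3 or Ctrl replicate 2.

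Of the other TNF superfamily ligands, 7 of 15 were tested, with 2 higher and 1 lower (median -0.12). Tnfsf13 (APRIL), which acts on B cells, rose by 0.48 (SE 0.11, adjusted p = 0.00525), with 35.1, 36.8 and 34.1 CPM in KAT7KO libraries, against 20.4, 29.3 and 26.4 CPM in Ctrl libraries. Tnfsf15 rose by 1.28 from a low level (0.953 CPM in KAT7KO and 0.390 CPM in Ctrl) and lost its call without any library but Ctrl replicate 3 (adjusted p = 0.0686 to 0.127). Tnf fell by 0.54 and lost its call without KAT7KO replicate 2, KAT7KO replicate 3 or Ctrl replicate 2 (adjusted p = 0.118, 0.0841 and 0.0866). The list had 3 lower genes without Ctrl replicate 1. Of 7 other B7 and butyrophilin genes only Ildr2 was tested, at 8.98 CPM in KAT7KO and 10.5 CPM in Ctrl (adjusted p = 0.332).

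Genes that carry the CD40 signal to NF-kB gave 1 higher and 3 lower of 25 tested, all 25 of the list (median -0.042). Ikbkg, the regulatory subunit of the IkB kinase, rose by 0.23, and Birc2, Traf4 and Nfkbie fell by 0.34, 0.34 and 0.33. Leaving out KAT7KO replicate 1 or KAT7KO replicate 3 brought both counts of this list to 0 (adjusted p = 0.0768 to 0.149 for these 4 genes), and leaving out KAT7KO replicate 2 did so for the lower genes (0.0510 to 0.131). Without Ctrl replicate 2 the counts were 0 and 1, with Ikbkg, Traf4 and Nfkbie at 0.119, 0.0670 and 0.106. Without Ctrl replicate 1 they were 3 and 3, with Nfkbie at 0.0878, and Traf4 was at 0.124 without Ctrl replicate 3. The subunit genes Rela, Relb, Rel, Nfkb1 and Nfkb2 had log2 fold changes between -0.051 and 0.18 and did not pass. Cytokines that accompany costimulation had 0 higher and 1 lower of 7 tested (median 0.003). Ebi3, a subunit of IL-27 and IL-35, fell by 0.33 and lost its call without any 1 of the KAT7KO libraries or Ctrl replicate 2 (adjusted p = 0.0919 to 0.219), with a log2 fold change of -0.20 without the last of these, and Tgfb1 averaged 455 CPM in KAT7KO and 448 CPM in Ctrl.

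Transcription factors of antigen-presenting cells gave 3 higher and 5 lower of 20 tested (median -0.021). Klf4, a factor of monocyte differentiation, averaged 25.1 CPM in KAT7KO and 16.0 CPM in Ctrl and rose by 0.66 (SE 0.09, adjusted p = 0.000154). Runx3 fell by 0.69 (adjusted p = 0.0103) and Irf4 by 0.83 (adjusted p = 0.0117, or 0.0523 without KAT7KO replicate 3). Batf and Id2, which rose, and Bcl6, which fell, were named after their values were seen, and all 3 lost their calls without KAT7KO replicate 1 or KAT7KO replicate 2 (adjusted p = 0.0617 to 0.137). Without KAT7KO replicate 3 the same held for Bcl6 and Id2 (0.0523 and 0.119), and without Ctrl replicate 2 for Batf and Id2 (0.0526 and 0.103). The log2 fold change of Id2 was 0.23, or 0.13 without Ctrl replicate 1. The list had 1 higher gene without KAT7KO replicate 1, KAT7KO replicate 2 or Ctrl replicate 2, and 2, 2 and 1 lower genes without KAT7KO replicates 1, 2 and 3. Spi1, Irf8 and Ciita, which drives MHC class II transcription, had log2 fold changes of 0.046, 0.11 and 0.40 and did not pass.

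Genes that act on the CD86 and PD-L1 proteins after translation, by ubiquitin or by trafficking, gave 0 higher and 3 lower of 12 tested (median -0.093). Cmtm4, a membrane protein that stabilises PD-L1, had 10.9, 10.6 and 11.8 CPM in KAT7KO libraries, against 25.4, 26.0 and 27.4 CPM in Ctrl libraries. The log2 fold change was -1.24 (SE 0.09, edgeR adjusted p = 3.19e-07), while its relative Cmtm6 averaged 139 CPM in KAT7KO and 129 CPM in Ctrl and did not pass. Cblb, a ubiquitin ligase, averaged 72.2 CPM in KAT7KO and 117 CPM in Ctrl and fell by 0.70 (adjusted p = 5.51e-06). Marchf8 fell by 0.18 (adjusted p = 0.0260) and lost its call without KAT7KO replicate 1 or 3 (0.118 and 0.123). Marchf1, the ligase that removes CD86 from the surface, had a log2 fold change of -0.25 and missed the threshold (adjusted p = 0.0529). Without Ctrl replicate 3 the list had 5 lower genes. Protein levels were not measured here.

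The list of dendritic cell maturation genes gave 0 higher and 5 lower of 9 tested (median -0.35). The 5 include Tmem176a and Tmem176b, which are linked with the immature state of dendritic cells. The count therefore mixes genes of the mature and the immature state. Fscn1, the actin bundler of mature dendritic cells, averaged 54.5 ± 2.89 CPM in KAT7KO and 79.6 ± 2.96 CPM in Ctrl (SD, n = 3 each) and fell by 0.55 (SE 0.06, edgeR adjusted p = 2.77e-05). Tmem176a and Tmem176b fell by 0.39 and 0.38, Cacnb3 by 0.40 (adjusted p = 0.0231), and Serpinb9, named after its value was seen, by 0.35 (adjusted p = 0.0286). Cacnb3 and Serpinb9 did not pass without any 1 of the KAT7KO libraries (0.0562 to 0.0831 and 0.0677 to 0.111) or without Ctrl replicate 1 (0.0712 and 0.0510), and Serpinb9 also not without Ctrl replicate 2 (0.0805). The list then held 3 lower genes without any 1 of these 4 libraries. Ccr7, the homing receptor of mature dendritic cells, averaged 1.19 CPM in KAT7KO and 1.18 CPM in Ctrl. Ccr7, Ccl22, Tbc1d4 and Il15ra did not pass, with log2 fold changes of 0.0027, 0.11, 0.19 and 0.27.

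**Figure D5:**
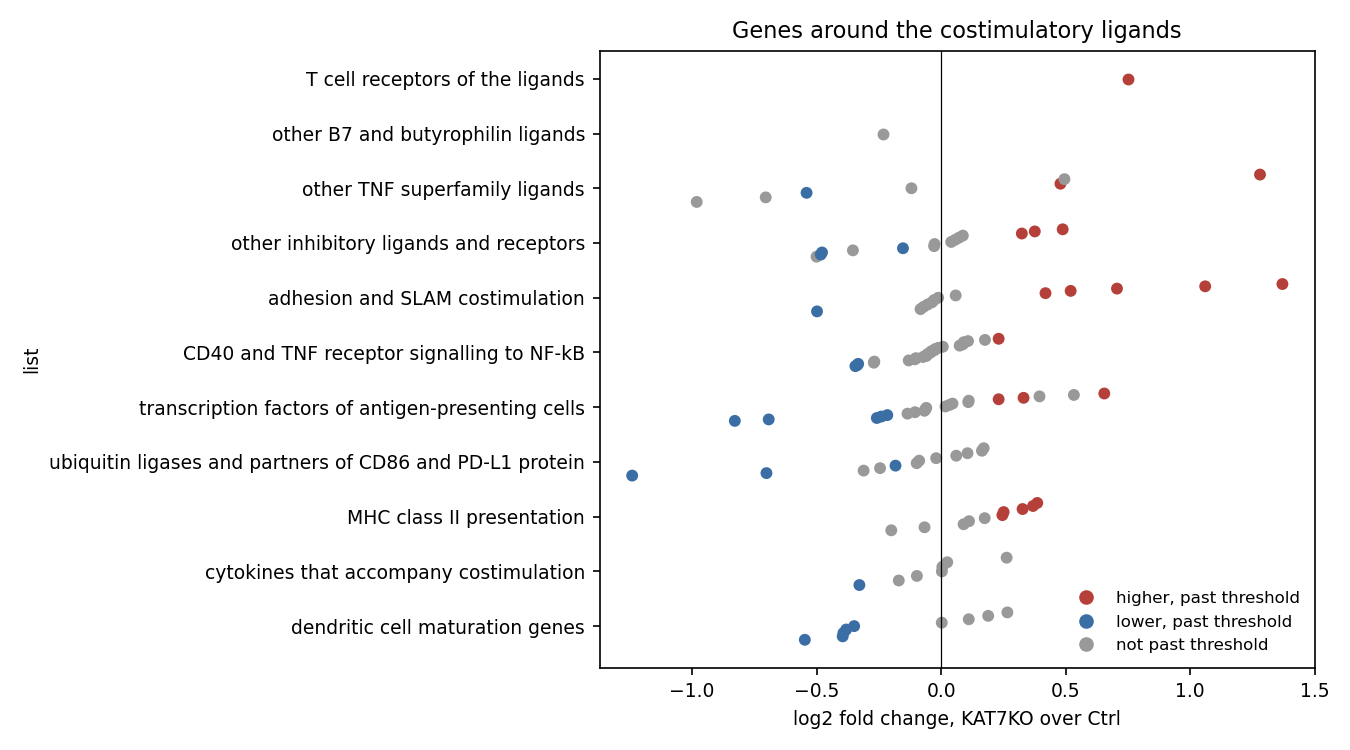
Log2 fold change, KAT7KO over Ctrl, of the 119 tested genes on 11 lists around the costimulatory ligands, with each point a gene. Red marks genes higher and blue marks genes lower past an adjusted p of 0.05 (20 and 22 genes). The MHC class II list has 5 red and 0 blue points, with grey points on either side of 0. The dendritic cell maturation list has 0 red and 5 blue points, Tmem176a and Tmem176b among the blue, and its grey points lie above 0.

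B cells and dendritic cells, which marrow cultures can hold, also carry CD86, and some B cell markers moved with it. Of 12 B cell markers 11 had a row, 5 were tested, 3 were higher and 0 lower. The sum over the 11 was 149 to 164 CPM in KAT7KO libraries and 112 to 129 CPM in Ctrl libraries, and Cd22 made up 139 to 154 and 106 to 124 CPM of it. Cd22 rose by 0.32 (adjusted p = 0.00229), Bank1 by 0.97 (adjusted p = 0.00338) and Ms4a1, which encodes CD20, by 1.70 (adjusted p = 0.00522). The defining markers had few counts. Cd79a, a chain of the B cell receptor complex, had 24, 18 and 32 counts in KAT7KO libraries, against 8, 17 and 12 counts in Ctrl libraries. Pax5 had 9, 3 and 4 counts in KAT7KO libraries, against 3, 5 and 4 counts in Ctrl libraries, and none of the 11 was at 0 in all libraries of a genotype. Dendritic cell markers (9 of 11) summed to 333 to 339 CPM in KAT7KO libraries and 371 to 393 CPM in Ctrl libraries. Nearly all of it was Itgax (180 to 188 CPM in KAT7KO and 190 to 239 CPM in Ctrl) and Bst2 (144 to 150 and 150 to 178 CPM). Of 4 tested, 0 were higher and 1 was lower. That was Itgax (-0.20, adjusted p = 0.0469), which lost its call without any 1 of the KAT7KO libraries or Ctrl replicate 2 (0.0849 to 0.168) and had a log2 fold change of -0.11 without Ctrl replicate 1. Zbtb46 and Dpp4 had log2 fold changes of -0.31 and -0.61 and did not pass. Clec9a, not tested, had 4, 5 and 3 counts in KAT7KO libraries, against 0, 2 and 1 counts in Ctrl libraries. Flt3 had 1, 4 and 1 counts in KAT7KO libraries, against 0, 1 and 1 counts in Ctrl libraries, and Ffar2 was at 0 in KAT7KO. Without Ctrl replicate 1 there were 2 lower genes. The summed neutrophil markers (7 of 10) were 112 to 120 CPM in KAT7KO libraries and 88.3 to 91.4 CPM in Ctrl libraries. Csf3r alone made up 99.9 to 108 and 81.1 to 84 CPM of these sums. Both tested genes were higher (S100a8 by 0.86 and Csf3r by 0.34, adjusted p = 0.00011 and 0.000423). Cxcr2, not tested, was lower in each KAT7KO library (at most 0.149 CPM) than in any Ctrl library (0.343 to 0.773 CPM). Among the others not tested, Ltf averaged lower in KAT7KO, Elane and Camp averaged higher, and Mpo was at 0 in KAT7KO. Stroma and endothelium markers (8 of 8) summed to 708 to 724 CPM in KAT7KO libraries and 772 to 994 CPM in Ctrl libraries. The highest sum, 994 CPM, was that of Ctrl replicate 1. Of 6 tested, 0 were higher and 3 were lower. Those 3, in the direction of Cd276, were Col1a1, Dcn and Kdr (log2 fold changes -0.44, -0.345 and -0.49, adjusted p = 0.0202, 0.000218 and 0.00588). Col1a2, Col3a1 and Pdgfrb had log2 fold changes of -0.19, 0.0029 and 0.34 and did not pass. Cdh5, not tested, was higher in each KAT7KO library (0.303 to 0.746 CPM) than in any Ctrl library (0.147 to 0.244 CPM). Pecam1, also not tested, overlapped, and none of the 8 was at 0 in all libraries of a genotype. Mast cell and basophil markers summed to 1.97 to 2.81 CPM in KAT7KO libraries and 2.94 to 3.24 CPM in Ctrl libraries over 4 of 6 genes, and the 3 tested genes had edgeR adjusted p-values of 0.279 to 0.561. The part of other cell types in the differences of Cd86 and Cd276 was not tested.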

How the data were processed

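All values come from a deposited table of the whole series. In it the authors give raw counts per gene and library, as whole numbers, and FPKM, which divide counts by gene length and library size, per the file headers. Beside them the deposited table holds p-value columns and a log2 fold change of KAT7KO over Ctrl, both from the authors. The submitters' processing notes list FastQC, fastp, HISAT2, featureCounts, DESeq2 and GRCm39, with no version or role. The settings for strand and for reads with several matches are not stated. RefSeq tables of GRCm38.p6 served for chromosomes, gene order and promoter windows, which matched 6 of the 10 members.

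The edgeR filter filterByExpr kept 12483 of 18039 genes. Testing used TMM scaling and the quasi-likelihood functions glmQLFit (robust) and glmQLFTest of edgeR 4.0.16 under R 4.3.3, and p-values were adjusted by Benjamini-Hochberg over those genes. No block was used. An SE is the absolute log2 fold change over the square root of F, and intervals are at 95%. Nearness to Cd86 used log2 CPM with a prior count of 2. The code was tested on simulated counts.

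Members and lists were chosen with earlier results of these data known. The genes named are the members, Kat7, the 5 nearest to Cd86 and, from each list, up to 4 past the threshold by p, filled to 2 by level; any further gene was named after its values were seen. Some genes of the lists are counted but not reported here by name. Alternatives were DESeq2 1.42.0, the edgeR fit with DESeq2 size factors, all genes without a filter, the replicate number as block, each library left out, and CPM over length for the order of levels. Library totals were 19906726 to 20660090 counts. Replicates differed by more than sampling noise (chi-square per gene 2.69 to 20.2), so each counted as a sample of its own.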

Additional observations from a re-analysis of the deposited data

How the results depend on the processing

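With DESeq2 size factors, no filter on low counts, DESeq2 and the replicate block, the 9 members that passed the filter kept their directions, the counts past the threshold stayed at 1 higher and 2 lower, and Cd86 had a log2 fold change of 1.65 to 1.66. Pdcd1lg2 was recomputed with DESeq2 size factors (log2 ratio -2.16) and with each library left out, and not under the other alternatives. The order of member levels was the same with CPM over length. Leaving out 1 library mattered more. Counts over all genes ranged from 663 to 1708 higher and from 1071 to 1820 lower, those of the pathway lists from 13 to 23 and from 9 to 27, and those of members from 1 to 2 and from 2 to 3. Log2 fold changes ranged from 1.5 to 1.75 for Cd86, -0.41 to -0.32 for Cd274, -0.92 to -0.81 for Cd276, -1.01 to -0.36 for Tnfsf9 and -0.077 to 0.079 for Cd40, and the log2 ratio of Pdcd1lg2 from -2.90 to -1.89. Of 51 called genes outside the set, 25 lost the call under at least 1 alternative, 7 of them with the replicate block and 7 with DESeq2, and 0 changed sign. The cause was not tested.

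Same-numbered libraries showed no shared deviation (correlations -0.0044, 0.0059 and 0.021 for replicates 1, 2 and 3). With so few libraries and little spread among those of KAT7KO, these values cannot exclude that the replicate numbers pair the samples. With the replicate block 1290 genes were higher and 1522 lower, against 1335 and 1652 without it, and the pathway lists gave 19 and 17. Depth limits Pdcd1lg2, with 5 counts in KAT7KO and 23 in Ctrl.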
